A study of Oryza sativa with 8 samples.

Results

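Dehydrins and other late embryogenesis abundant (LEA) proteins are small hydrophilic proteins that accumulate in drying seeds and in tissues short of water. Abscisic acid (ABA) is perceived by PYL receptors, which inhibit protein phosphatases of the 2C class and so release SnRK2 kinases. These kinases activate bZIP transcription factors that bind the promoters of dehydrin and LEA genes. In rice these transcripts are widely used as readouts of ABA and water stress.

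The genes described here are 5 of the 17905 genes paired with a probe set on a rice Affymetrix array. RAB16B, RAB16C and DIP1 encode dehydrins and Osem encodes a group 1 LEA protein of the Em type. These 4 ABA-inducible genes were chosen with earlier results of these arrays known and are treated as selected on their genotype differences and levels here, which are therefore given as a description. Whether they passed the fit over all probe sets is given only as counts, with no p-value, and is no independent evidence. RAB16D, another dehydrin, was added because its name is RAB16 plus a letter. All probe sets paired with 1 of these genes alone were used, 7 of the 57194 tested, and the main one of a gene was that with the highest mean over the 8 arrays. DIP1 had 3 probe sets and each of the others had 1.

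The study compared plants overexpressing Ghd7, a repressor of flowering that also affects plant height and grain number, with their wild type, the rice cultivar Hejiang19. The groups were young leaves of OX-Ghd7HJ19 plants, young leaves of Hejiang19, developing panicles of OX-Ghd7HJ19 plants and developing panicles of Hejiang19, with 2 arrays each. Leaves came from plants of 35 days and panicles were 0.1 cm long. All plants grew in the field and were sampled 3 hours after dawn, so each transcript was seen at a single time of day. The labels call the replicates biological. They do not give the promoter that drives the transgene, the number of transgenic lines or the number of plants behind an array, and their free-text description names flag leaf at heading instead of these tissues. No gene paired with a probe set is named Ghd7, so the transgene itself could not be used to check the genotypes.

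Values are RMA expression on the log2 scale as deposited, where a difference of 1 is a 2-fold change. The median of an array was 6.13 to 6.15 in panicles and 4.49 to 4.53 in leaves. Levels are therefore also given as percentiles, the rank of a probe set among all tested probe sets of its array. Replicates correlated with r of 0.991 to 0.998 over probe sets, which are not independent, and the median SD between replicates was 0.07 to 0.12 on the log2 scale. With 2 arrays in a group, precision is limited by their number. The tissue labels were checked with markers. The summed signal (log2) of 6 floral organ genes was 11.50 to 11.54 in OX-Ghd7HJ19 panicles and 13.71 to 13.75 in Hejiang19 panicles, against 7.23 to 7.47 in the leaves of both genotypes. That of 3 photosynthesis genes was 8.92 to 10.97 in panicles and 15.28 to 15.41 in leaves.

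RAB16B, RAB16C, RAB16D and RAB21 lie in a row as neighbouring protein-coding genes in the RefSeq annotation, in the order RAB16D, RAB16C, RAB16B, RAB21. RAB21, a dehydrin at the end of this row, was not added because the annotation used does not list it under a RAB16 name. No probe set was paired with the name RAB16A, and whether RAB21 is that gene was not checked. Dehydrins of a cluster are similar in sequence, and whether their probe sets share signal was not tested. The neighbours did not show 1 common pattern. RAB16B was higher in panicles of the overexpressor, RAB16C was lower in leaves of the overexpressor and higher in its panicles, and the arrays of RAB16D overlapped between genotypes in both tissues.

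RAB16B had values of 6.85 and 7.84 in OX-Ghd7HJ19 panicles, against 4.81 and 4.90 in Hejiang19 panicles. Both transgenic arrays lay above both wild-type arrays, and transgenic replicate 2 was the higher of its pair by more than the gap between the wild-type arrays. The difference was 2.49 ± 0.27 (log2 ± SE, n = 2 each), which is 5.63-fold. Here and below the SE is that of the limma fit, which shares the spread of a probe set over all 8 arrays. It is therefore not the spread of the compared arrays alone. The SD of RAB16B between replicates was 0.70 in OX-Ghd7HJ19 panicles and 0.06 in Hejiang19 panicles. RAB16B ranked at percentiles 57.7 and 65.9 in OX-Ghd7HJ19 panicles and at 29.1 and 30.5 in Hejiang19 panicles. A value below the array median may be background, so the 5.63-fold change may be an underestimate. In leaves RAB16B was dim throughout, with 2.60 and 2.42 in OX-Ghd7HJ19 and 2.06 and 2.33 in Hejiang19, at percentiles of 2.80 to 12.1. A genotype difference in leaves could have gone unseen at that level, and the measured one was 0.31 ± 0.27.

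RAB16C was measured well above the array median in every group. It had 5.92 and 5.59 in OX-Ghd7HJ19 leaves, against 6.61 and 6.44 in Hejiang19 leaves. In panicles it had 9.07 and 9.36 in OX-Ghd7HJ19 and 8.60 and 8.53 in Hejiang19. The arrays of the genotypes did not overlap in either tissue, and the order of the genotypes was opposite. The difference was -0.77 ± 0.15 in leaves, 1.71-fold lower in the overexpressor, and 0.65 ± 0.15 in panicles, 1.57-fold higher. In rank the same transcript stood at percentiles 66.7 and 70.8 in OX-Ghd7HJ19 leaves against 75.7 and 77.2 in Hejiang19 leaves, and at 73.9 and 76.4 in OX-Ghd7HJ19 panicles against 70.4 and 70.8 in Hejiang19 panicles. In bulk tissue, fewer cells that express a gene and less RNA per cell cannot be told apart.

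RAB16D, next to RAB16C, had 4.36 and 4.74 in OX-Ghd7HJ19 leaves and 4.44 and 4.36 in Hejiang19 leaves. It had 6.92 and 7.20 in OX-Ghd7HJ19 panicles and 6.96 and 7.17 in Hejiang19 panicles. Because RAB16D was added by name, its differences were tested: 0.15 ± 0.16 in leaves (limma, adjusted p = 0.726) and -0.01 ± 0.16 in panicles (limma, adjusted p = 0.996). The 95% intervals ran from -0.22 to 0.52 in leaves and from -0.38 to 0.36 in panicles. They leave room for changes of that size. RAB16D lay near the array median, at percentiles 47.0 to 53.4 in leaves and 58.3 to 60.9 in panicles.

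**Figure D1:**
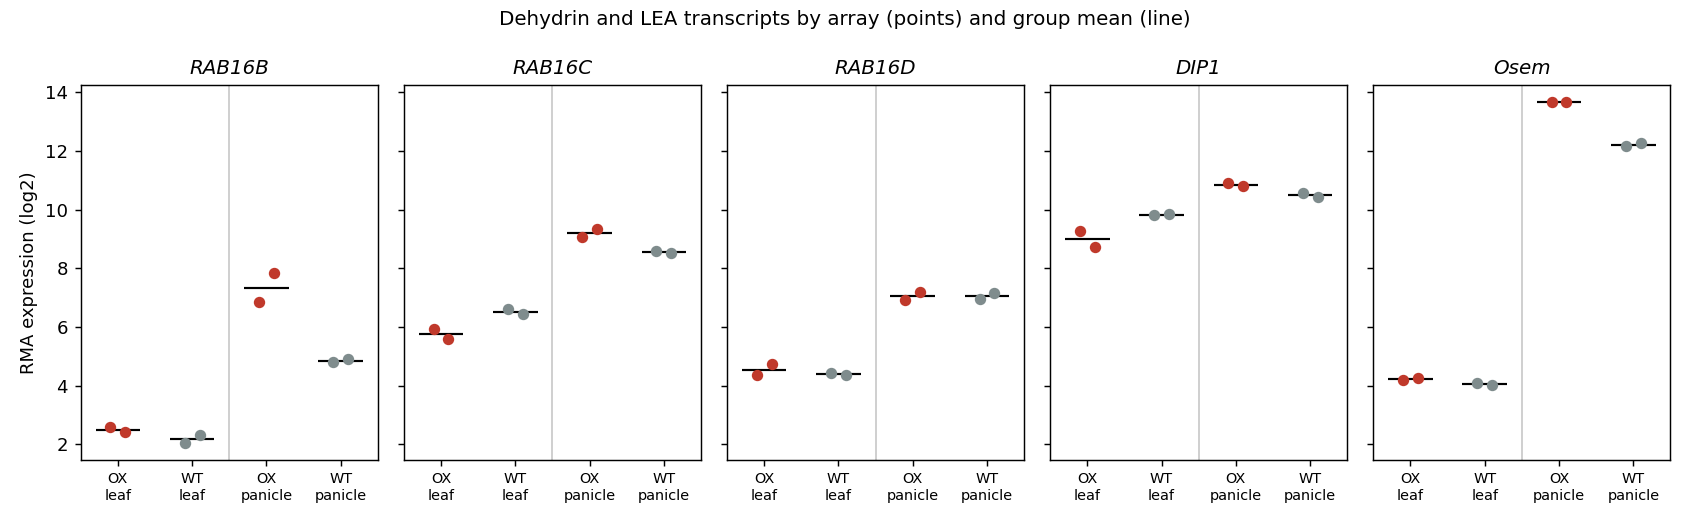
Expression (RMA, log2, vertical axis) of the 5 genes in overexpressor (OX, red) and wild-type (WT, grey) arrays of leaves and panicles, with each array as a point and the mean of 2 arrays as a line. RAB16B and Osem differ between genotypes mainly in panicles, at 2.49 and 1.45, whereas RAB16C and DIP1 are lower in OX leaves and higher in OX panicles.

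DIP1, an acidic dehydrin that RefSeq also lists as OsDhn1 and LIP9, followed the order of RAB16C. Its main probe set had 9.29 and 8.75 in OX-Ghd7HJ19 leaves, against 9.81 and 9.85 in Hejiang19 leaves. In panicles it had 10.90 and 10.79 in OX-Ghd7HJ19 and 10.56 and 10.42 in Hejiang19. The arrays did not overlap in either tissue, and as for RAB16C the lowest leaf value was that of transgenic replicate 2. The difference was -0.82 ± 0.17 in leaves, 1.76-fold lower in the overexpressor, and 0.36 ± 0.17 in panicles, 1.28-fold higher. DIP1 was among the bright transcripts of the leaf, at percentiles 91.8 and 93.9 in OX-Ghd7HJ19 and 95.5 and 95.7 in Hejiang19.

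The other probe sets of DIP1 were dimmer and moved little. The second one had 4.67 and 4.86 in OX-Ghd7HJ19 leaves and 4.73 and 5.03 in Hejiang19 leaves, a difference of -0.11 ± 0.21, and differed by -0.23 ± 0.21 in panicles. The third had 3.26 and 3.19 in OX-Ghd7HJ19 leaves and 3.30 and 3.33 in Hejiang19 leaves, a difference of -0.09 ± 0.12, and differed by 0.17 ± 0.12 in panicles. The second stood at percentiles 52.4 to 58.5 in leaves and the third at 23.8 to 27.6. In panicles the second stood at 35.5 to 45.8 and the third at 7.6 to 13.2, where values may be background. The arrays of the genotypes overlapped in both tissues on the second probe set. On the third they did not overlap and had the order of the main one, lower in OX-Ghd7HJ19 leaves and higher in OX-Ghd7HJ19 panicles, with 4.06 and 4.02 in OX-Ghd7HJ19 panicles and 3.77 and 3.97 in Hejiang19 panicles. Differences near 0.8 in leaves were read on the main probe set of DIP1 alone.

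Osem, whose relatives accumulate in maturing embryos, stood near the top of the panicle arrays. It had 13.67 and 13.66 in OX-Ghd7HJ19 panicles, against 12.17 and 12.26 in Hejiang19 panicles. Transgenic arrays agreed within 0.01 and both lay above the wild-type arrays. The difference was 1.45 ± 0.11, which is 2.74-fold. Osem stood at percentile 99.5 on both arrays of OX-Ghd7HJ19 panicles and at 95.9 and 96.3 in Hejiang19 panicles. In leaves it had 4.20 and 4.26 in OX-Ghd7HJ19 and 4.09 and 4.03 in Hejiang19, a difference of 0.17 ± 0.11 at percentiles 41.6 to 45.0, below the array median.

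**Figure D2:**
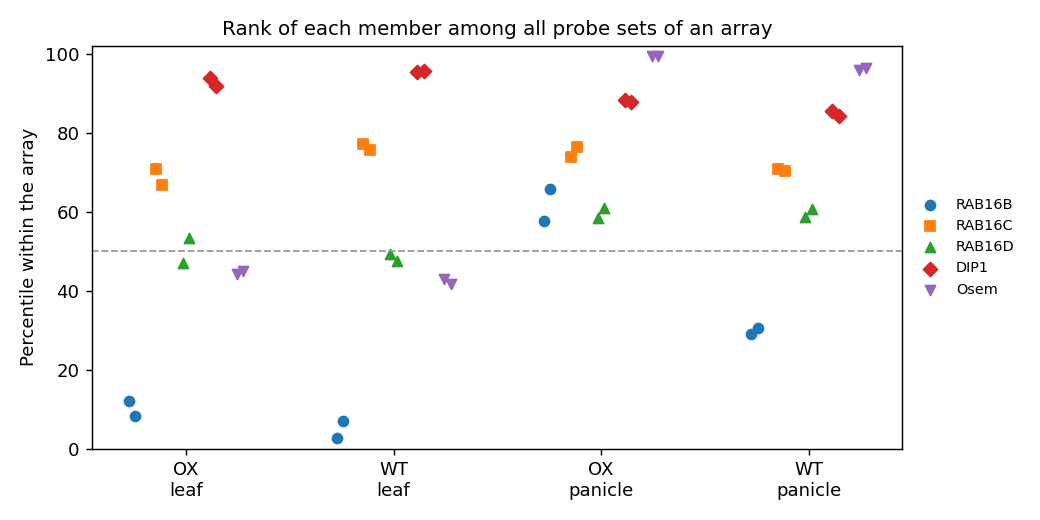
Percentile of each gene among the tested probe sets of the same array (vertical axis, dashed line at the array median) in overexpressor (OX) and wild-type (WT) leaves and panicles, with 2 arrays per gene and group as points. Osem is below the median in leaves and at percentile 95.9 or higher in panicles, RAB16B passes the median in OX panicles alone, and DIP1 stays at percentile 84.3 or higher in all groups.

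The counts that follow describe how the genes came to be picked and carry no evidence of their own. In leaves, RAB16C and DIP1 passed the test over all probe sets as lower in the overexpressor, where 3.05% of probe sets passed as lower. These calls were lost in 6 of 15 alternative fits for RAB16C and in 10 of 15 for DIP1, of which 5 and 7 left out 1 array. In panicles, RAB16B and Osem passed as higher, where 1.05% of probe sets passed as higher, and RAB16C and DIP1 did not pass. The effect in panicles minus that in leaves was 2.18 ± 0.38 for RAB16B, 1.42 ± 0.22 for RAB16C, 1.17 ± 0.24 for DIP1, 1.29 ± 0.15 for Osem and -0.16 ± 0.23 for RAB16D. The first 4 passed as higher, with 2.10% of probe sets passing that way. That call was lost in 8 of 14 alternative fits for DIP1, 5 for RAB16B, 2 for RAB16C and 0 for Osem. Passing as lower was seen for 1.74% of probe sets. The contrast takes leaves and panicles as being on 1 log2 scale, although their array medians differ. In leaves, RAB16C and DIP1 lay below the wild type without overlap (18.3% of all probe sets) and RAB16B and Osem above it (25.2%), and in panicles RAB16B, RAB16C, DIP1 and Osem lay above it (27.3%). Arrays of the overexpressor lay below the wild type in leaves and above it in panicles without overlap for 2 of 5 genes, RAB16C and DIP1, and for 5.08% of all probe sets.

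The floral organ genes moved in the same panicles. All 6 of them, OsMADS4, OsMADS7, OsMADS8, OsMADS16, OsMADS58 and DL, fell in panicles of the overexpressor, with a median of -1.99, and the photosynthesis genes OsrbcS at -1.34 and RCABP69 at -1.79 fell as well, with CAB2R at -1.48 (limma, adjusted p = 0.122). The value of OsrbcS is that of its main probe set, and its other 3 read 0.03, -0.64 and 0.23 in panicles, of which the one at -0.64 passed (limma, adjusted p = 0.0380). The photosynthesis sum was 10.11 and 8.92 in OX-Ghd7HJ19 panicles, against 10.87 and 10.97 in Hejiang19 panicles. The lowest value was transgenic replicate 2, the array on which RAB16B, RAB16C and RAB16D were highest. DIP1 and Osem were not highest there, with 10.79 and 13.66 against 10.90 and 13.67 on transgenic replicate 1. The part of the floral and photosynthesis differences in the panicle values of RAB16B, RAB16C, DIP1 and Osem was not tested. In leaves none of the 3 photosynthesis or 6 floral genes passed (limma, 0 and 1 of them with an unadjusted p under 0.05).

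Across tissues the levels carry the limit that the arrays of leaves and panicles have different medians, with a panicle minus leaf difference of 1.58 for the median probe set in wild type. Relative to that median, Osem was higher in Hejiang19 panicles than in Hejiang19 leaves by 6.57, RAB16D by 1.08, RAB16B by 1.07 and RAB16C by 0.46. DIP1 stood at -0.93. As deposited, all 5 differences were positive and passed, as did 84.1% of all probe sets, so the test sets none of them apart. After quantile normalization of all arrays together, the difference was -0.71 for RAB16C and -1.91 for DIP1, and with array medians set equal it was -0.98 for DIP1, so their order between tissues is unsettled.

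Other LEA genes were fewer than the list prepared for them, since 3 of them besides the 5 above were measured. RAB21 had 7.39 and 8.43 in OX-Ghd7HJ19 panicles, against 7.30 and 7.42 in Hejiang19 panicles. The high value was again replicate 2 of the overexpressor, and replicate 1 overlapped the wild type. The difference was 0.55 ± 0.27 (limma, adjusted p = 0.389), and a second probe set of RAB21 with 6.43 and 7.46 against 6.50 and 6.59 differed by 0.40 ± 0.28. OsLEA3, a group 3 LEA gene, differed by 0.32 in panicles and RAB25, another dehydrin, by 0.23. In leaves the values were -0.19 for RAB21, -0.23 for OsLEA3 and -0.17 for RAB25. None of the 3 passed in either tissue (limma, 0 with an unadjusted p under 0.05 in leaves and 1 in panicles).

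Over the 36 measured genes of ABA metabolism, ABA signalling, LEA proteins and water stress other than the members, 5 rose and 3 fell in leaves of the overexpressor, with a median of -0.02. Over all probe sets 1.37% rose and 3.05% fell, with a median of 0.03. In panicles 2 of the 36 rose and 0 fell (limma, 7 of them with an unadjusted p under 0.05), with a median of 0.02. Over all probe sets 1.05% rose and 1.84% fell there. An unadjusted p under 0.05 (limma) was seen for 9638 of all 57194 probe sets in leaves and 8732 in panicles. The unadjusted counts of this and the smaller lists are to be read beside those. The lists were written with earlier results of these arrays known and describe the surroundings of the 5 genes. Adjusted p-values given for list genes are therefore no independent evidence.

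Among the signalling genes, OsPP2C30, an ABA-related protein phosphatase of the 2C class, had 7.81 and 7.36 in OX-Ghd7HJ19 leaves, against 8.55 and 8.46 in Hejiang19 leaves. It fell by 0.92 ± 0.16 in leaves (limma, adjusted p = 0.0135) and had a difference of 0.68 ± 0.16 in panicles (adjusted p = 0.0634). The effects in the tissues differed by 1.60 ± 0.23 (adjusted p = 0.00690), the same order as for RAB16C and DIP1. Without replicate 2 of the OX-Ghd7HJ19 leaves or either replicate of the Hejiang19 leaves the leaf call was lost, with adjusted p of 0.0528 to 0.0786. SAPK3, an SnRK2 kinase, fell by 0.70 ± 0.12 in leaves (adjusted p = 0.0124), and its relative SAPK4 rose by 0.46 ± 0.11 (adjusted p = 0.0440). The SAPK3 call was lost without either replicate of the OX-Ghd7HJ19 leaves (adjusted p of 0.0652 to 0.0803) and the SAPK4 call without any of the 8 arrays (adjusted p of 0.0652 to 0.154). The other 10 signalling genes did not pass in leaves, and none of the 13 passed in panicles (limma, 1 with an unadjusted p under 0.05).

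The bZIP factor OsABF2, which RefSeq also lists as OsBZIP23, had 8.38 and 7.68 in OX-Ghd7HJ19 leaves and 8.66 and 8.71 in Hejiang19 leaves. Its difference of -0.66 ± 0.20 did not pass (limma, adjusted p = 0.120), nor did 0.40 ± 0.20 in panicles (adjusted p = 0.392). TRAB1, a bZIP factor that binds ABA-responsive elements, differed by -0.16 in leaves and -0.02 in panicles, and OsVP1, a B3 factor of seed maturation, by 0.02 and 0.14. OsVP1 lay at 3.14 in OX-Ghd7HJ19 leaves and 3.13 in Hejiang19 leaves, below the array median.

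Of the ABA metabolism genes, OsABA8ox1, an ABA 8'-hydroxylase of ABA breakdown, had 7.03 and 7.31 in OX-Ghd7HJ19 leaves, against 3.94 and 3.63 in Hejiang19 leaves. That order was the reverse of RAB16C and DIP1 and the same as RAB16B and Osem, and a link to any of them was not tested. OsABA8ox1 rose by 3.39 ± 0.17 (limma, adjusted p = 2.32e-05), which may be an underestimate since the wild-type mean lay at percentile 36.9. In panicles it differed by 0.23 ± 0.17. OsABA8ox2, a related hydroxylase, differed by 0.14 in leaves and -0.67 in panicles (adjusted p = 0.0776), and OsABA1, the zeaxanthin epoxidase of ABA synthesis, by -0.16 and -0.04.

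Among 8 stress transcription factors, OsDREB1A rose by 2.55 ± 0.16, OsDREB1B by 2.91 ± 0.17 and the NAC factor OsNAC3 by 1.94 ± 0.36 in leaves of the overexpressor (limma, adjusted p = 7.25e-05, 5.13e-05 and 0.0170). The OsNAC3 call was lost without either replicate of the OX-Ghd7HJ19 leaves (adjusted p of 0.0855 to 0.123), and its value was 1.25 without replicate 2 of the Hejiang19 leaves, the lower of that pair. In panicles the factors that rose were OsNAC5 and SNAC2, NAC factors of drought and salt responses. OsNAC5 had 10.57 and 10.43 in OX-Ghd7HJ19 panicles, against 9.56 and 9.65 in Hejiang19 panicles, and rose by 0.89 ± 0.12 (adjusted p = 0.00424). SNAC2 had 9.33 and 9.28 in OX-Ghd7HJ19 panicles, against 8.42 and 8.61 in Hejiang19 panicles, and rose by 0.79 ± 0.13 (adjusted p = 0.0157). Other probe sets of OsNAC5 read 0.52 and 0.77 and did not pass, and other probe sets of SNAC2 read -0.06 and 0.28. The OsNAC5 call was lost without replicate 1 of the Hejiang19 panicles (adjusted p = 0.0637) and the SNAC2 call without any of the 4 panicle arrays (adjusted p of 0.0711 to 0.154).

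**Figure D3:**
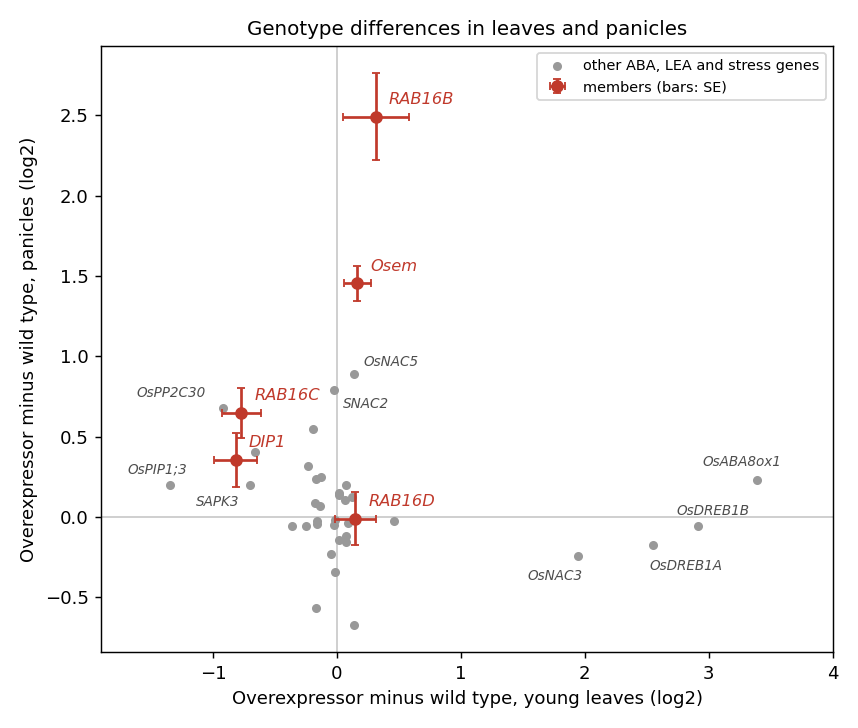
Overexpressor minus wild type in leaves (horizontal axis, log2) against the same in panicles (vertical axis, log2) for the 5 genes (red, bars are SE) and for 36 other genes of the ABA, LEA and stress lists (grey, without bars). RAB16B and Osem lie high and near 0 on the leaf axis, RAB16C and DIP1 lie with OsPP2C30 to the upper left, and OsABA8ox1 and the DREB1 genes lie far to the right.

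The remaining water stress genes held 1 call. OsPIP1;3, an aquaporin, had 9.70 and 9.48 in OX-Ghd7HJ19 leaves, against 11.25 and 10.61 in Hejiang19 leaves, and fell by 1.34 ± 0.22 (limma, adjusted p = 0.00904). The call was lost without replicate 2 of the OX-Ghd7HJ19 leaves (adjusted p = 0.0919). OsP5CS of proline synthesis differed by -0.13 in leaves and 0.07 in panicles, salT by 0.07 and -0.15 and OsTPP1, a trehalose-6-phosphate phosphatase, by 0.12 and 0.13. The membrane protein genes OsLti6a and OsLti6b differed by -0.02 and -0.17 in leaves and by -0.34 and -0.57 in panicles. None of the 6 passed in panicles (limma, 2 with an unadjusted p under 0.05).

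The likeness of 2 genes was measured as the root mean square difference of their log2 values over the 8 arrays, after each was centred on its mean within a tissue. It reads the same genotype differences that were in view when the genes were picked. Among the 10 pairs of the 5 genes, RAB16C and DIP1 were nearest at 0.16 and RAB16B and RAB16D farthest at 0.92. RAB16B and its neighbour RAB16C stood at 0.79, and RAB16B and Osem at 0.46.

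Of 596 other named genes with a difference of at least 0.5 in either tissue, the nearest to DIP1 were OsABF2 at 0.09, CCAMK at 0.09 and URH2 at 0.12. CCAMK is a calcium- and calmodulin-dependent kinase of root symbiosis. The nearest to RAB16C were GL2-4 at 0.12, URH2 at 0.13 and OsPP2C30 at 0.14. GL2-4 is also listed as Roc4, a homeodomain factor. By group means, all of these were lower in OX-Ghd7HJ19 leaves and higher in OX-Ghd7HJ19 panicles. Choosing genes near RAB16C or DIP1 selects for that order, so sharing it is no further result. Leaf differences were -0.57 for GL2-4, -0.63 for URH2 and -0.99 for CCAMK, and panicle differences were 0.81, 0.57 and 0.20.

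**Figure D4:**
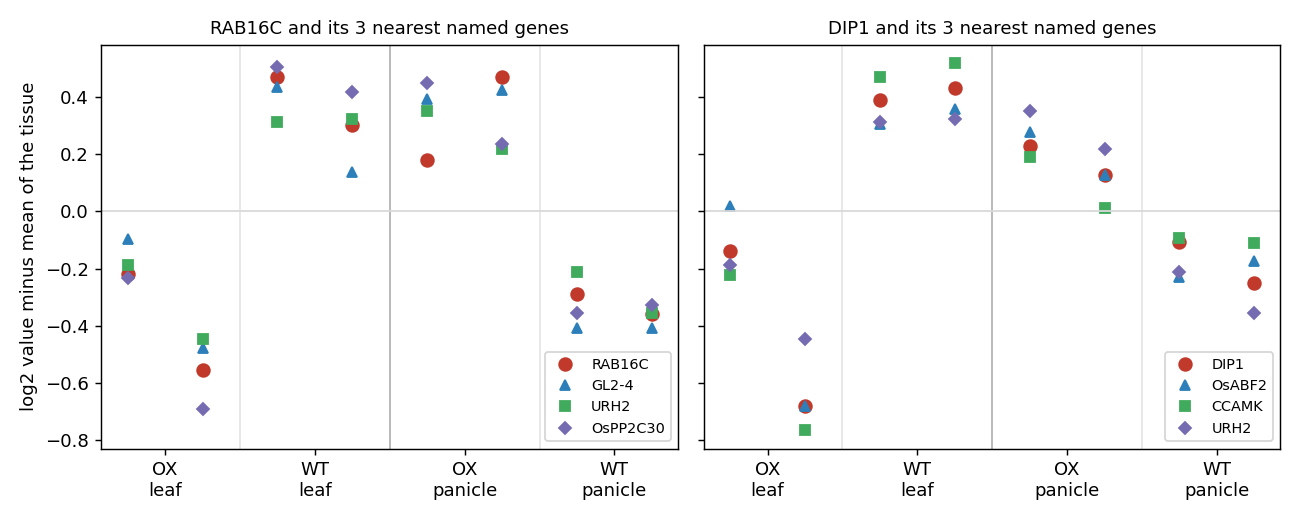
Values of RAB16C (left) and DIP1 (right) with the 3 named genes nearest to each, as log2 value minus the mean of the tissue (vertical axis), for both arrays of overexpressor (OX) and wild-type (WT) leaves and panicles. In each panel the second OX leaf array lies lowest, at -0.55 for RAB16C and -0.68 for DIP1.

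The nearest to Osem were OsSWEET15 at 0.11, ERR26 at 0.15 and IPA1 at 0.16, with panicle differences of 1.32, 1.17 and 1.09. OsSWEET15 encodes a sugar transporter, ERR26 is also listed as the metallothionein gene OsMT1a and IPA1 as OsSPL14, a regulator of branching. The nearest to RAB16B were HSF05 at 0.30, ML6 at 0.33 and PBZ1 at 0.37, with panicle differences of 3.03, 1.80 and 2.44. HSF05 belongs to the heat shock factors and PBZ1 encodes a pathogenesis-related protein. Their differences in leaves were between -0.19 and 0.27.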

How the data were processed

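The deposited table holds log2 expression values made by the authors with RMA, per the submitters' processing notes. That method corrects background, quantile normalizes and summarises probes. The sources used here do not say which arrays were normalized together. Array medians of 4.49 to 4.53 in leaves and 6.13 to 6.15 in panicles are not those of a joint quantile normalization. Leaves and panicles were therefore probably normalized separately. Of 57381 probe sets, 123 AFFX and 64 reporter controls were left out. The platform annotation, updated through a RefSeq table, paired 22436 probe sets with 1 gene, 95 with several and 34663 with none. A linear model with a mean for each group (4 residual degrees of freedom) was fitted in limma 3.58.1 (R 4.3.3), followed by eBayes. P-values were two-sided and Benjamini-Hochberg adjusted over all 57194 probe sets. A gene passed under 0.05, and "rose" and "fell" refer to that test. Members and lists were chosen with earlier results of these data known. Of 94 list entries, 45 gave a separate measured gene, on its probe set of highest mean, and 36 of these belong to the ABA, LEA and stress lists. The text names all members, list genes that passed and, as chosen after their values were seen, the other list genes it gives. It also names the 3 nearest genes of each member with a difference of at least 0.5. The fit was tested on simulated data. Alternatives were other normalizations, a filter on dim probe sets, smaller fits, variance models, array weights, a replicate term and leaving out each array. Tables were joined with pandas 2.3.3 under Python 3.11.15, and matplotlib 3.10.9 drew the plots. Gene and protein sequences were not used here.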

Additional observations from a re-analysis of the deposited data

Results flagged for a closer look

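RAB16C and DIP1 had opposite genotype differences in the tissues on every array, read on the main probe set. Taken alone, the panicle difference passed for neither gene. On the second probe set of DIP1 the genotypes overlapped in both tissues and the panicle difference was -0.23. The third had the order of the main one but lay at percentile 27.6 or lower on every array, where values may be background. The effect in panicles minus that in leaves was 1.42 for RAB16C and 1.17 for DIP1 on the log2 scale. Both passed the limma contrast over all probe sets, which is no independent evidence because the genes were picked with these differences known. Without 1 array the call was lost in 2 of 8 fits for RAB16C, those without a Hejiang19 panicle array, and in 7 of 8 for DIP1, all but the one without OX-Ghd7HJ19 leaf replicate 1.

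Of the other ABA, LEA and stress genes that passed in a tissue, 8 had effects that differed between tissues by the limma contrast. The effect in panicles minus that in leaves was 1.60 for OsPP2C30, 1.54 for OsPIP1;3, 0.90 for SAPK3 and 0.75 for OsNAC5 (adjusted p = 0.00690, 0.0268, 0.0218 and 0.0389). The value of OsNAC5 rests on its main probe set, and its other 2 read 0.16 each and did not pass (limma, adjusted p = 0.825 and 0.894). It was -3.16 for OsABA8ox1, -2.97 for OsDREB1B, -2.73 for OsDREB1A and -2.19 for OsNAC3 (adjusted p = 5.47e-04, 6.50e-04, 6.90e-04 and 0.0489). The adjusted p of OsPP2C30, OsABA8ox1, OsDREB1A and OsDREB1B stayed under the threshold in all 14 alternatives, and OsNAC3, OsNAC5, SAPK3 and OsPIP1;3 lost the call in 8, 8, 6 and 5 of them. The lists were written with earlier results of these arrays known, so these adjusted p-values are no independent evidence. The alternatives refit the same arrays. With 2 arrays in a group, no search for single outlying arrays was made.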

How the results depend on the processing

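With only the 4 arrays of a tissue in the fit, 325 probe sets passed in leaves and 692 in panicles, against 2529 and 1652 with all arrays, and 3 and 1 of the 36 listed genes, against 8 and 2. That fit has fewer residual degrees of freedom. Array weights gave 2807 and 5 in panicles. Leaving dim probe sets out gave 32939 for the tissue difference, with fewer probe sets tested. Without 1 array the counts ran from 1051 to 3292 in leaves, 420 to 1645 in panicles, 630 to 2670 for the difference of effects and 50975 to 52617 for the tissues, and over the listed genes from 3 to 7, 0 to 3 and 4 to 8. A lone array was then assumed to vary like the other groups. In leaves the count was 1422 without OX-Ghd7HJ19 leaf replicate 1, 1051 without replicate 2 and 1528 without either Hejiang19 panicle array. In panicles it was 468 without Hejiang19 panicle replicate 1, 420 without replicate 2 and 770 without OX-Ghd7HJ19 panicle replicate 2. The count for the difference of effects was 1285 and 1116 without OX-Ghd7HJ19 leaf replicates 1 and 2, 670 and 630 without Hejiang19 panicle replicates 1 and 2, and 1209 without OX-Ghd7HJ19 panicle replicate 2.

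Of the members, the leaf call of RAB16C was lost in 6 of 15 alternatives and that of DIP1 in 10. With the loss of 1 array, the RAB16C call failed without either Hejiang19 leaf or panicle array or OX-Ghd7HJ19 leaf replicate 2, where its value was -0.60. The DIP1 call failed without any array but OX-Ghd7HJ19 leaf replicate 1, and its value was -0.55 without replicate 2. The panicle call of RAB16B was lost in 1 of 15, the fit on 4 arrays, and that of Osem in 0 of 15. The difference of effects of RAB16B lost its call without Hejiang19 leaf replicate 2, either OX-Ghd7HJ19 leaf array or either Hejiang19 panicle array. That of DIP1 was also lost under the replicate block and read -0.11 on its second probe set, and SNAC2 read -0.058 in panicles on another probe set. Panicle minus leaf turned to -0.71 for RAB16C and -1.91 for DIP1 after quantile normalization and to -0.98 for DIP1 with equal medians. The cause was not tested. Quantile normalization of all arrays together also changed genotype differences within a tissue. In panicles these then read 2.15 for RAB16B, 0.56 for RAB16C, 0.43 for DIP1 and 2.03 for Osem. In leaves they read -0.92 for RAB16C, -0.65 for DIP1 and 4.14 for OsABA8ox1.

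Deviations of same-numbered arrays from their group means correlated with r of 0.01 in leaves and 0.06 in panicles. Such a value, taken over probe sets that are not independent, cannot show whether replicate numbers pair the arrays. The replicate block gave 1816 probe sets in leaves, 1097 in panicles and 1 of the listed genes in panicles. Promoter and protein motifs were not run.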
